A study of Capra hircus with 6 samples.

Results

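Messenger RNA of the PPAR, RXR and LXR nuclear receptors was followed in goat intramuscular preadipocytes, precursors of the adipocytes found inside muscle, with and without silencing of LIPG, the gene of endothelial lipase. The 8 receptors chosen by name were PPARA, PPARD, PPARG, RXRA, RXRB, RXRG, NR1H2 (LXRβ) and NR1H3 (LXRα), and 7 of them had a row among the 27271 genes of the files, of which 18989 carry a name. RXRA had no row under its name and was not analysed here. Primary cells came from the longissimus dorsi of Jianzhou goats 3 days old. The NC groups (n = 3) received a negative control siRNA and the Si-LIPG groups (n = 3) an siRNA against LIPG, and all 6 cultures were then kept for 48 h with 50 μmol/L oleic acid, a fatty acid that drives lipid storage and that both groups therefore share. The study's methods call the replicates biological, without saying how many goats gave cells or whether each replicate was a separate isolation, so p values measure the spread between these libraries.

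PPARs and LXRs are transcription factors that bind DNA as a pair with an RXR and are switched on by lipids. PPARs respond to fatty acids and their derivatives: PPARα (PPARA) is best known for fatty acid oxidation in liver and muscle, PPARδ (PPARD) for fatty acid use in many tissues, and PPARγ (PPARG) for turning preadipocytes into adipocytes. LXRs respond to oxysterols and regulate cholesterol export and fatty acid synthesis, and RXRs respond to retinoids such as 9-cis retinoic acid.

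Reads counted on genes numbered 524776 to 703680 in the NC libraries and 864882 to 1051230 in the Si-LIPG libraries. Among all reads of the files they were 0.997% to 1.53% in NC and 1.80% to 2.88% in Si-LIPG, and their part in the differences between groups was not tested. Of all reads, 91.6% to 93.7% were listed as falling on no gene and 0.909% to 1.22% as not aligned. The mitochondrial gene ND6, which is transcribed from the strand opposite to the other mitochondrial protein genes, exceeded the median of the 12 others by 22.6 to 99.3 times in counts per kb, so that whether the receptor counts come from the transcribed strand is not known and was not tested. LIPG itself had counts of 0, 2 and 0 (NC 1 to 3) and of 0, 2 and 2 (Si-LIPG 1 to 3), too few to check the labels. A count of 3, the limit that a count of 0 allows, equals 2.85 to 5.72 counts per 1000000 reads on genes (CPM) in these libraries, and all intervals and limits given cover counting error only. Of the markers chosen for preadipocytes and mesenchymal cells, 7 of 9 were counted and DLK1 was at 0. Their summed level was 2012 to 3749 CPM in the NC libraries and 4258 to 5014 CPM in the Si-LIPG libraries. That sum was mostly ITGB1, and without ITGB1, a setting chosen after the data were seen, the others summed to 1113 to 1495 CPM and 1463 to 1583 CPM, which overlap. ENG, another marker of the list, was lower in every Si-LIPG library (333 to 435 CPM) than in any NC library (468 to 591 CPM). PDGFRA (45.7 to 134 CPM in NC, 143 to 184 CPM in Si-LIPG), PDGFRB (53.4 to 94.7 and 97.1 to 154 CPM) and NT5E (232 to 433 and 497 to 685 CPM) were higher in every Si-LIPG library, as was ITGB1. THY1 and CD44 overlapped. In FPKM, 19.5% of all counted genes were wholly higher in Si-LIPG. All 6 myogenic markers were counted, with a summed level of 276 to 387 CPM in the NC libraries and 471 to 531 CPM in the Si-LIPG libraries. Mature adipocyte markers summed to 5.72 to 18.5 CPM and 11.6 to 24.4 CPM, those of macrophages and leukocytes to 24.2 to 43.2 CPM and 21.4 to 31.2 CPM, and those of endothelial cells to 0 to 6.64 CPM and 0 to 7.12 CPM, with PTPRC, CDH5, KDR and TEK at 0 in every library. In bulk RNA, fewer cells of a type and less RNA per cell cannot be told apart.

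The receptors that were counted were at low levels. Of the 7 receptors, 6 had a count in at least 1 library and RXRG, the RXR best known from muscle and brain, was at 0 in all 6 libraries. Levels of different genes are compared per length, as deposited FPKM. Over the 6 libraries, the mean FPKM was 5.17 for RXRB, 4.36 for NR1H2, 3.61 for NR1H3, 3.07 for PPARD, 3.07 for PPARG and 2.44 for PPARA. Between 32.7% and 49.0% of the 14848 genes with any count had a lower mean FPKM, so the receptors lay in the lower and middle part of the range. In the NC groups the order by mean FPKM was RXRB, NR1H2, PPARA, NR1H3, PPARG and PPARD, and in the Si-LIPG groups it was RXRB, PPARD, NR1H2, NR1H3, PPARG and PPARA. Neighbours in these orders differed by less than the SD of either over its 3 libraries. The exception was PPARG against PPARA in the Si-LIPG groups, where the gap exceeded both SDs and the libraries of both genes still overlapped. PPARD thus stood last among the 6 counted receptors in the NC groups and second in the Si-LIPG groups.

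**Figure D1:**
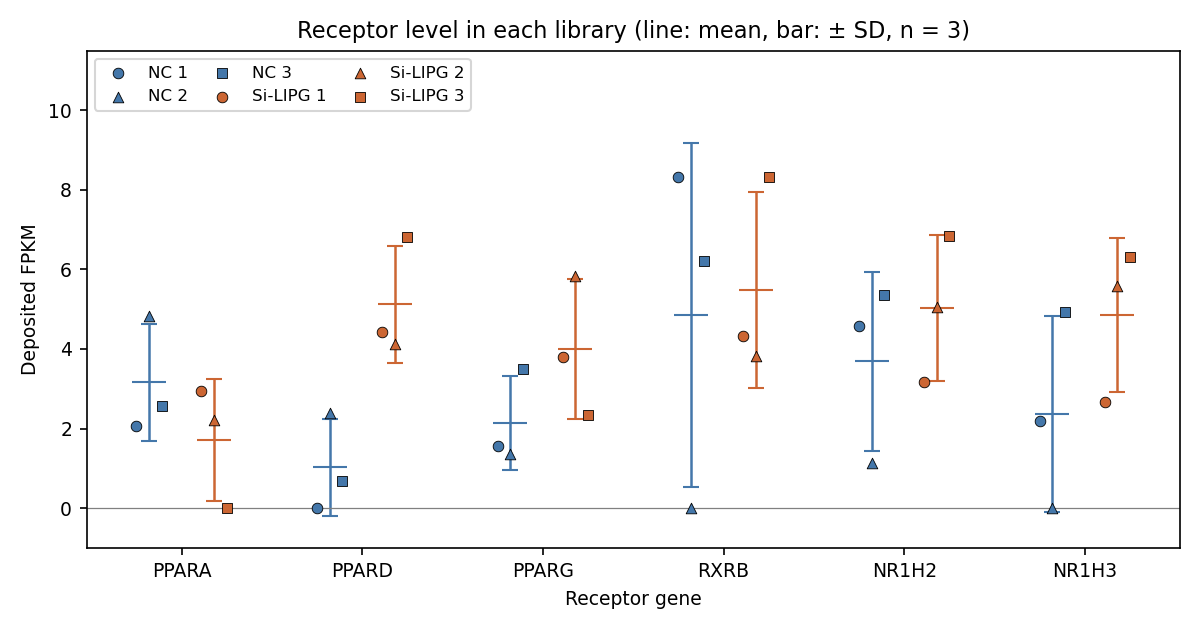
Deposited FPKM (vertical axis) of the 6 receptors with a count, in each NC (blue) and Si-LIPG (orange) library; wide lines are means and bars are ± SD (n = 3). The groups overlap for 5 of the 6 receptors, and the PPARD values of the Si-LIPG libraries, 4.13 to 6.82, lie above those of the NC libraries, 0 to 2.38.

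PPARD (ENSCHIG00000013898) was the receptor with the largest difference. Its counts were 0, 6 and 2 (NC 1 to 3) and 16, 17 and 30 (Si-LIPG 1 to 3), which is 0, 2.38 and 0.679 FPKM against 4.42, 4.13 and 6.82 FPKM. Every Si-LIPG library was above every NC library, and NC 1 had no PPARD read at all. The mean FPKM was 1.02 ± 1.23 in NC and 5.12 ± 1.47 in Si-LIPG (mean ± SD, n = 3 each, two-sided exact permutation test p = 0.1, the lowest that 3 against 3 can reach). It was the only one of the 6 counted receptors whose groups did not overlap in FPKM, and 19.5% of all counted genes had Si-LIPG libraries wholly above the NC libraries on that scale. Summed over libraries, 8 reads in the NC groups and 63 in the Si-LIPG groups gave a ratio of 4.97 per read counted on genes (95% exact conditional interval 2.38 to 12.02). The summed myogenic markers and the share of reads on genes were also higher in every Si-LIPG library than in any NC library, as was the sum of the preadipocyte markers with ITGB1 but not without it, and their part in the PPARD difference was not tested.

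PPARA (ENSCHIG00000026407) had a lower mean FPKM in Si-LIPG, by less than the SD of either group. Its counts were 3, 8 and 5 in NC against 7, 6 and 0 in Si-LIPG, or 2.08, 4.82 and 2.58 FPKM against 2.94, 2.22 and 0 FPKM. The groups overlapped, with Si-LIPG 1 above NC 1 and NC 3, and the low end was set by Si-LIPG 3, in which PPARA was at 0. The mean FPKM was 3.16 ± 1.46 in NC and 1.72 ± 1.53 in Si-LIPG (mean ± SD, n = 3 each, exact permutation test p = 0.5). The summed counts were 16 and 13, a ratio of 0.513 per read on genes with an interval of 0.227 to 1.14 that includes 1. The study itself reported higher PPARα mRNA by RT-qPCR and higher PPARα protein by Western blot after LIPG silencing. Why these few counts differ from that was not tested.

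PPARG (ENSCHIG00000015877) had counts of 2, 2 and 6 in NC against 8, 14 and 6 in Si-LIPG. Its FPKM was 1.56, 1.36 and 3.50 against 3.80, 5.85 and 2.34, so that NC 3 lay above Si-LIPG 3 and the groups overlapped. The mean FPKM was 2.14 ± 1.18 and 3.99 ± 1.76 (mean ± SD, n = 3 each), and the difference did not pass the test (exact permutation test, p = 0.2). The ratio of the summed counts, 10 in the NC groups and 28 in the Si-LIPG groups, was 1.77 per read on genes (interval 0.834 to 4.08).

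The make-up of the PPAR counts does not depend on how libraries are scaled against each other. PPARD took 0% of the PPAR counts in NC 1 (0 of 5 reads, 95% Wilson interval 0% to 43.4%, and 60.0% at a count of 3). In NC 2 it took 37.5% (6 of 16, 18.5% to 61.4%) and in NC 3 15.4% (2 of 13, 4.33% to 42.2%). It took 51.6% in Si-LIPG 1 (16 of 31, 34.8% to 68.0%), 45.9% in Si-LIPG 2 (17 of 37, 31.0% to 61.6%) and 83.3% in Si-LIPG 3 (30 of 36, 68.1% to 92.1%). All Si-LIPG libraries were above all NC libraries, although the interval of every NC library overlapped those of Si-LIPG 1 and 2. The mean share was 17.6% ± 18.9 in NC and 60.3% ± 20.1 in Si-LIPG (mean ± SD, n = 3 each), higher by 42.7 percentage points (two-sided exact permutation test, p = 0.1). With FPKM in place of counts, which corrects for the different lengths of the genes, the PPARD share was higher by 36.7 percentage points (exact permutation test, p = 0.1).

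PPARA took a smaller share in every Si-LIPG library than in any NC library. Its share was 60.0% in NC 1 (3 of 5, 23.1% to 88.2%), 50.0% in NC 2 (8 of 16, 28.0% to 72.0%) and 38.5% in NC 3 (5 of 13, 17.7% to 64.5%). It was 22.6% in Si-LIPG 1 (7 of 31, 11.4% to 39.8%) and 16.2% in Si-LIPG 2 (6 of 37, 7.65% to 31.1%). In Si-LIPG 3 it was 0% (0 of 36, Wilson interval 0% to 9.64%, and 8.33% at a count of 3). The mean share was 49.5% ± 10.8 in NC and 12.9% ± 11.6 in Si-LIPG (mean ± SD, n = 3 each), a difference of -36.6 percentage points (exact permutation test, p = 0.1). On the FPKM scale the PPARA share differed by -35.7 percentage points (exact permutation test, p = 0.1). The PPARG share, 32.9% ± 17.9 against 26.8% ± 10.6 (mean ± SD, n = 3 each), overlapped between the groups (exact permutation test, p = 0.7). Shares of 1 total are not independent, so that the PPARA and PPARD differences are 2 sides of the same counts.

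**Figure D2:**
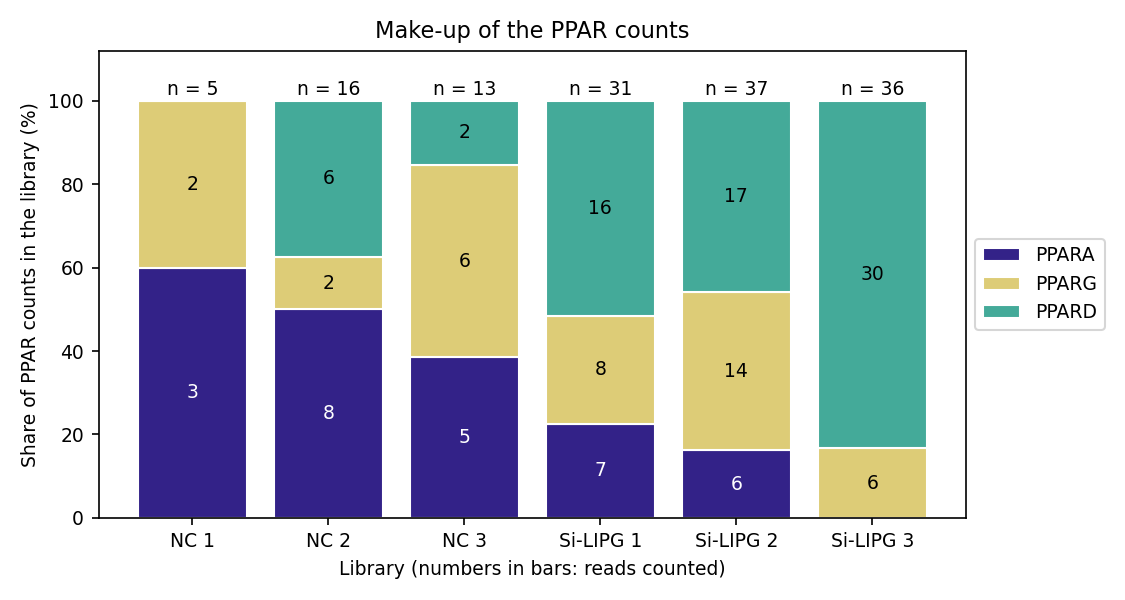
Share of the PPAR counts (vertical axis, percent) on PPARA, PPARG and PPARD in each library, with the number of reads written in the bars and the total above them. PPARD takes 0% to 37.5% of the PPAR counts in the NC libraries and 45.9% to 83.3% in the Si-LIPG libraries, on totals of 5 to 37 reads.

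RXRB (ENSCHIG00000010266), which encodes RXRβ, was the only RXR with a count, and it made up all RXR counts in the 5 libraries that had any. Its counts were 7, 0 and 7 in NC against 6, 6 and 14 in Si-LIPG, or 8.33, 0 and 6.21 FPKM against 4.33, 3.81 and 8.31 FPKM. The groups overlapped throughout, and NC 2 was alone in having no RXRB read. The mean FPKM was 4.85 ± 4.33 and 5.49 ± 2.46 (mean ± SD, n = 3 each, exact permutation test p = 1), and the summed counts of 14 and 26 gave a ratio of 1.17 per read on genes (interval 0.590 to 2.43). The statement on RXRs covers RXRB and RXRG, since RXRA was not analysed here.

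NR1H2 (ENSCHIG00000027007), the LXR that most tissues express, had the most reads of any member. Its counts were 14, 4 and 22 in NC against 16, 29 and 42 in Si-LIPG, which corresponds to 4.57, 1.14 and 5.36 FPKM and 3.17, 5.06 and 6.85 FPKM. NC 2 was the lowest of all libraries and the others overlapped. The mean FPKM was 3.69 ± 2.24 and 5.03 ± 1.84 (mean ± SD, n = 3 each, exact permutation test p = 0.5), and the ratio of the summed counts, 40 and 87, was 1.37 (interval 0.934 to 2.05).

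NR1H3 (ENSCHIG00000013751), the LXR best known from liver, fat and macrophages, had counts of 4, 0 and 12 in NC against 8, 19 and 23 in Si-LIPG. Its FPKM was 2.20, 0 and 4.92 against 2.67, 5.58 and 6.31, so that NC 3 lay above Si-LIPG 1 and NC 2 had no read. The mean FPKM was 2.37 ± 2.46 in NC and 4.85 ± 1.93 in Si-LIPG (mean ± SD, n = 3 each, exact permutation test p = 0.2). Per read on genes, the summed counts of 16 and 50 gave a ratio of 1.97 with an interval of 1.11 to 3.71, which takes no account of the spread between libraries.

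The division of the LXR counts overlapped between the groups. NR1H2 took 77.8% (14 of 18, 54.8% to 91.0%), 100% (4 of 4, 51.0% to 100%) and 64.7% (22 of 34, 47.9% to 78.5%) of the LXR counts in NC libraries 1, 2 and 3. In Si-LIPG libraries 1, 2 and 3 it took 66.7% (16 of 24, 46.7% to 82.0%), 60.4% (29 of 48, 46.3% to 73.0%) and 64.6% (42 of 65, 52.5% to 75.1%). The means were 80.8% ± 17.8 and 63.9% ± 3.19 (mean ± SD, n = 3 each), and the difference of -16.9 percentage points did not pass the test (exact permutation test, p = 0.2). Without NC 2, whose share rests on 4 reads, the difference was -7.34 percentage points.

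NC 2 stood apart from the other libraries in its receptor counts. PPARs made up 80.0% of its 20 receptor reads, against 16.7% of 30 in NC 1, 24.1% of 54 in NC 3 and 31.3% to 50.8% in the Si-LIPG libraries. It had no RXRB and no NR1H3 read, and it held 6 of the 8 PPARD reads of the NC groups. Over all members together, the 6 libraries had 57.2, 33.2 and 76.7 receptor CPM in NC 1, 2 and 3 and 70.5, 92.6 and 109 in Si-LIPG 1, 2 and 3. NC 3 was above Si-LIPG 1, so the summed receptor level also overlapped between the groups.

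Groups were then compared with the quasi-likelihood test of edgeR on counts after TMM normalization, which assumes that most genes do not differ between libraries. Only 3 of the 6 counted receptors, PPARD, NR1H3 and NR1H2, passed the filter on low counts. PPARD passed it only through the Si-LIPG libraries, in which it was high. None of the 3 met the criterion of the study (unadjusted p under 0.05 and fold change over 1.5), which 20.7% of the 6574 tested genes met, 7.83% higher and 12.9% lower in the Si-LIPG groups. None had an adjusted p under 0.05 either, against 6.5% of the tested genes. Without the filter, edgeR called 0 of the 6 counted receptors at the criterion, against 13.8% of 14848 genes, and DESeq2 also 0 of 6, against 11.4%. At an unadjusted p under 0.05 alone the count was 0 with both tools.

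The level of PPARD in TMM-normalized CPM was 4.50 ± 5.37 in NC and 17.3 ± 3.90 in Si-LIPG (mean ± SD, n = 3 each), and the groups did not overlap, as for 15.2% of the tested genes in that direction. Its log2 fold change was 1.79 (standard error, SE, 0.96, unadjusted p = 0.0789, adjusted p = 0.309 from edgeR). The median log2 fold change of all tested genes was 0.16 with TMM, 0.71 with library sizes alone and 1.58 with all reads of the files as the scale. Under those scalings the log2 fold change of PPARD was 2.27 (unadjusted p = 0.0327 from edgeR) and 3.11 (unadjusted p = 0.0154), at which PPARD met the criterion together with 29.6% and 46.1% of the tested genes. Relative to the median of all genes, PPARD stood 1.63, 1.56 and 1.53 higher on the log2 scale under the 3 scalings. The result also turned on NC 2, since without that library the log2 fold change was 3.07 (unadjusted p = 0.0189 from edgeR), past the criterion together with 22.6% of the tested genes.

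NR1H3 had 10.3 ± 9.35 and 13.3 ± 4.02 (mean ± SD, n = 3 each) TMM-normalized CPM, a log2 fold change of 0.39 (SE 0.98, edgeR adjusted p = 0.871). This value became -0.23 without NC 2, where NR1H3 was at 0. NR1H2 had 28.1 ± 19.0 and 23.3 ± 6.11 (mean ± SD, n = 3 each) TMM-normalized CPM, a log2 fold change of -0.22 (SE 0.65, edgeR adjusted p = 0.892), whose sign turned to 0.44 with library sizes alone and 1.42 when scaled to all reads. Differences of the size of these standard errors, or well above it, could go undetected at this depth. PPARD, at 1.79 (SE 0.96), did not meet the criterion under TMM. Relative to the median of all genes, NR1H2 stayed below by 0.38, 0.27 and 0.17 on the log2 scale under TMM, library sizes alone and all reads.

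**Figure D3:**
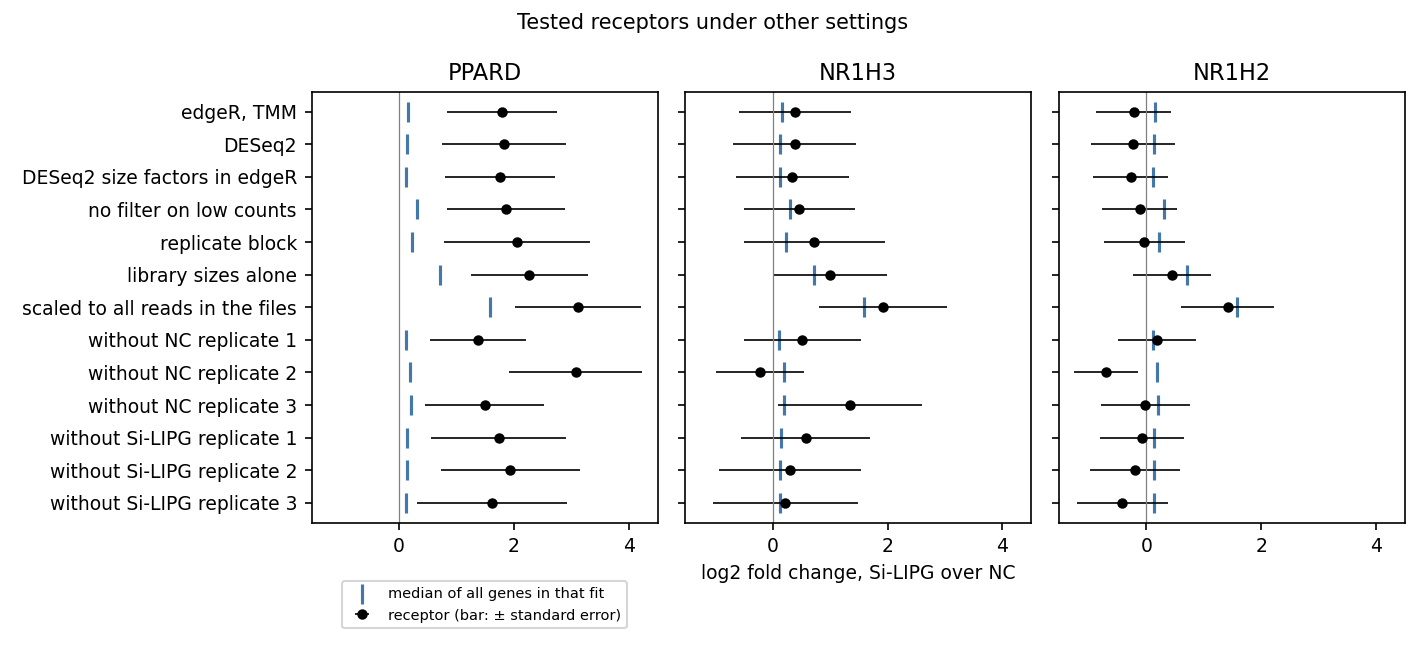
Log2 fold change (Si-LIPG over NC, horizontal axis) of the 3 tested receptors under TMM and 12 other settings; points are the receptors with ± standard error, blue ticks the median of all genes in that fit. PPARD lies to the right of 0 and of the blue tick in every count-based setting drawn, from 1.37 to 3.11, while NR1H2 and NR1H3 lie on both sides of 0.

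The 3 receptors below the filter have values and no test in the main comparison. In TMM-normalized CPM, PPARA was at 10.3 ± 3.25 and 4.12 ± 3.85 (mean ± SD, n = 3 each), PPARG at 6.30 ± 2.83 and 7.99 ± 3.45 (mean ± SD, n = 3 each), and RXRB at 10.9 ± 11.0 and 7.05 ± 2.62 (mean ± SD, n = 3 each) in the NC and Si-LIPG groups. On this scale the gap of PPARA exceeded both SDs, and its libraries overlapped, with Si-LIPG 1 at 7.63 and NC 3 at 7.61. The fit without the filter gave log2 fold changes of -1.26 for PPARA (SE 1.32, edgeR unadjusted p = 0.329), 0.40 for PPARG (SE 1.26, edgeR unadjusted p = 0.747) and -0.40 for RXRB (SE 1.17, edgeR unadjusted p = 0.728).

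Genes that overlap a receptor gene or lie within 1 kb of it were listed from RefSeq (goat assembly ARS1.2), since their reads may not be separable from those of the receptor. None was found for PPARD, PPARG, RXRG, NR1H2 and NR1H3. PPARA is overlapped by the long noncoding RNA LOC108636077 and has CDPF1 within 1 kb. CDPF1 had counts of 0, 0 and 2 in NC against 16, 7 and 36 in Si-LIPG, so that it was high in Si-LIPG 3, the library in which PPARA was at 0. RXRB lies within 1 kb of SLC39A7, a zinc transporter gene, and of COL11A2, a collagen gene. SLC39A7 had counts of 7, 40 and 34 against 47, 74 and 97 (log2 fold change 0.27, SE 0.43, edgeR adjusted p = 0.785), and COL11A2 had 0, 0 and 2 against 6, 0 and 3.

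The genes whose TMM-normalized log2 CPM followed each tested receptor most closely were found among the 1919 tested genes whose mean count reached 50. These values are descriptions over 6 libraries that share depth and normalization. For PPARD, CLSTN1, a membrane protein of the calsyntenin family, was the closest (Pearson's r = 0.995). CLSTN1 had 37.6, 129 and 67.0 CPM in the NC libraries and 172, 156 and 172 CPM in the Si-LIPG libraries, so that both it and PPARD were lowest in NC 1 and highest among NC libraries in NC 2. For NR1H3 they were RBM3, an RNA-binding protein (r = 0.992), and GOLGA3, a Golgi protein (r = 0.976), both lowest in NC 2 with 52.2 and 12.2 CPM. For NR1H2 they were the unnamed gene ENSCHIG00000022904 (r = 0.989) and EPB41L2, a cytoskeletal protein (r = 0.962), which were also lowest in NC 2.

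Proteins that receptors recruit, other partners of RXR, enzymes that supply ligands and textbook target genes were described next, each as a list taken whole. Of the 15 coactivators, which receptors with ligand recruit to switch genes on, 13 had a row, 9 were tested and 0 met the criterion (edgeR, 0 of 9 at an unadjusted p under 0.05). PPARGC1A, the coactivator of mitochondrial gene expression, was at 0 in every library. The coactivator log2 fold changes ran from -0.20 to 1.45, with a median of 0.10 against 0.16 over all tested genes.

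Of the 10 corepressors, which keep target genes off, 9 were tested and 1 met the criterion (11.1%, against 20.7% of all tested genes), SIN3A, the scaffold of a histone deacetylase complex. SIN3A had counts of 0, 2 and 11 in NC against 20, 39 and 51 in Si-LIPG, without overlap. In TMM-normalized CPM the groups did not overlap either, as for 15.2% of the tested genes in that direction. That SIN3A was tested depended on the Si-LIPG libraries, since not every NC library reached the level of the low-count filter. The log2 fold change of SIN3A was 1.94 (SE 0.82, edgeR adjusted p = 0.182). It missed the criterion when NC 1, NC 2, Si-LIPG 2 or Si-LIPG 3 was left out (1.51, 1.57, 1.91 and 1.77 on the log2 scale). The median over the tested corepressors was 0.23, and the other 8, such as NCOR1 and HDAC3, ran from -0.79 to 0.91.

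Of 11 other receptors that pair with an RXR, 6 were tested and 2 met the criterion, both lower in the Si-LIPG groups, where 12.9% of all tested genes were called in that direction. NR1I3, the constitutive androstane receptor of liver, had counts of 122, 75 and 119 in NC against 95, 69 and 57 in Si-LIPG, which overlap. In TMM-normalized CPM it was at 231 ± 133 and 66.0 ± 33.3 (mean ± SD, n = 3 each) without overlap, a log2 fold change of -1.80 (SE 0.45, edgeR adjusted p = 0.0400) that was -0.31 when scaled to all reads. The adjusted p of NR1I3 was above 0.05 without any 1 of NC 1, NC 2, Si-LIPG 2 and Si-LIPG 3 (0.0559 to 0.259 from edgeR). In the RefSeq annotation NR1I3 overlaps TOMM40L and has PCP4L1 within 1 kb. THRA, a thyroid hormone receptor, had counts of 39, 29 and 46 against 36, 48 and 39 and a log2 fold change of -1.19 (SE 0.43, edgeR adjusted p = 0.113), which turned to 0.36 when scaled to all reads. THRA missed the criterion without NC 1 (-0.80) or Si-LIPG 3 (-1.02). It lies within 1 kb of NR1D1. The retinoic acid receptors RARA, RARB and RARG and the vitamin D receptor VDR had log2 fold changes from -0.11 to 0.44 and did not meet the criterion.

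Of 20 genes for ligand supply, only 12 had a count and 5 were tested. Only RBP4, the carrier of retinol in blood, met the criterion (1 of 5, or 20.0%, against 20.7% of all tested genes), with counts of 6, 10 and 2 in NC against 43, 38 and 45 in Si-LIPG. These did not overlap, nor did TMM-normalized CPM, as for 15.2% of the tested genes in that direction. The log2 fold change was 1.53 (SE 0.67, edgeR adjusted p = 0.199). Not every NC library reached the level of the low-count filter for RBP4, so its being tested depended on the Si-LIPG libraries. It missed the criterion without NC 3, Si-LIPG 1, Si-LIPG 2 or Si-LIPG 3, each left out alone (log2 fold changes of 0.99, 1.26, 1.65 and 1.62). The median of the 5 tested genes was 1.36 against 0.16 over all tested genes, a gap that was 0.21 with DESeq2, 0.09 without the filter on low counts, -0.82 with at least 10 counts in every library and 0.48 without NC 3. Several enzymes of retinoic acid and oxysterol metabolism, ALDH1A2, CYP26A1, CYP46A1 and SULT2B1, were at 0 in every library.

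Of 42 textbook PPAR targets, 27 had a count and 13 were tested. Of these, 4 met the criterion, 2 in each direction, where 20.7% of all tested genes met it. With at least 10 counts in every library the number was 2, and 1066 of the 2757 genes in that fit met the criterion. SLC25A20, the mitochondrial carrier of acylcarnitines, had counts of 0, 1 and 2 in NC against 20, 22 and 16 in Si-LIPG (log2 fold change 3.07, SE 1.09, edgeR adjusted p = 0.0957), and HADHB, a subunit of the enzyme of mitochondrial fatty acid oxidation, had 1, 8 and 10 against 28, 40 and 59 (log2 fold change 1.58, SE 0.63, edgeR adjusted p = 0.153). Neither pair of groups overlapped in counts or in TMM-normalized CPM, as for 15.2% of the tested genes in that direction on the latter scale. On that scale 5 of the 13 tested targets did not overlap in either direction, ACAA2, PNPLA2 and FABP3 among them. SLC25A20 passed the low-count filter only through the Si-LIPG libraries, so its being tested depended on the group in which it was high. HADHB reached the filter's level in every Si-LIPG library but not in every NC library, so its being tested depended on that group too. HADHB missed the criterion without Si-LIPG 2 (log2 fold change 1.63) or Si-LIPG 3 (1.42). Lower in TMM-normalized CPM were PNPLA2, the adipose triglyceride lipase, with 241 ± 52.5 and 98.9 ± 30.2 (mean ± SD, n = 3 each), and FABP3, a fatty acid carrier of muscle, with 66.2 ± 40.5 and 16.2 ± 10.6 (mean ± SD, n = 3 each). The log2 fold change of PNPLA2 was -1.28 (SE 0.34, edgeR adjusted p = 0.0400) and turned to 0.13 when scaled to all reads. Its adjusted p was above 0.05 when any library other than Si-LIPG 1 was left out (0.0559 to 0.273 from edgeR). That of FABP3 was -2.02 (SE 0.58, edgeR adjusted p = 0.0513), and only -0.55 with all reads as the scale. With 1 library left out it ran from -2.67 to -1.43 (edgeR adjusted p 0.0118 to 0.270), and its adjusted p was 0.0282 with DESeq2 and 0.0219 in edgeR without the filter. The other 9 tested targets, such as CPT1A, ACSL1, PLIN2 and ACADVL, ran from -0.81 to 1.01. After LIPG silencing the study reported, by RT-qPCR, higher PNPLA2 (ATGL) mRNA, lower FABP3 and CPT1A mRNA and no clear change of ACSL1 mRNA. Under TMM, PNPLA2 thus went the other way, and CPT1A was at 0.20 (SE 0.35). Why these counts differ from the RT-qPCR was not tested. The median of the 13 tested targets was 0.47, higher than that of all tested genes by 0.31, a gap that was 0.07 with DESeq2, -0.02 without the filter, -0.13 with at least 10 counts in every library, 0.0049 without Si-LIPG 2 and 0.68 without NC 2.

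The RefSeq annotation places HADHA within 1 kb of HADHB, CRACR2B within 1 kb of PNPLA2, ZCCHC17 within 1 kb of FABP3, LOC108637396 over FABP3, and a pseudogene (LOC102186532) over SLC25A20, whose reads may not be separable from theirs. Many PPAR targets of mature fat were hardly counted. CD36, LPL, PCK1 and UCP2 were at 0 in every library, FABP4 had counts of 0, 6 and 0 against 2, 8 and 0, and ADIPOQ had 4 reads in Si-LIPG 2 and none elsewhere. By RT-qPCR, the study itself reported lower LPL mRNA and no clear change of CD36 mRNA after LIPG silencing. Missing reads in these counts therefore do not show that the cells lacked a transcript. Why LPL and CD36 had no read here was not tested.

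Of 17 textbook LXR targets, 12 had a count, 6 were tested and 0 met the criterion (edgeR, 0 of 6 at an unadjusted p under 0.05, and 1 of the list, PLTP, with DESeq2). ABCA1, the cholesterol exporter, was at 13.7 and 21.0 TMM-normalized CPM in the NC and Si-LIPG groups (log2 fold change 0.67, SE 0.76, edgeR unadjusted p = 0.384). FASN, fatty acid synthase, had a log2 fold change of 0.39 (SE 0.40), and APOE, a lipoprotein component, one of 0.01 (SE 0.35). For FASN the study reported lower mRNA by RT-qPCR after LIPG silencing, and why the counts differ from that was not tested. The log2 fold changes ran from -1.56 for PLTP, the phospholipid transfer protein (unadjusted p = 0.0532 from edgeR), to 0.70 for LPCAT3, and their median was 0.20. SCD, stearoyl-CoA desaturase, was below the filter, with counts of 0, 0 and 0 in NC against 5, 2 and 13 in Si-LIPG, and ABCG1 was at 0 in every library.

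**Figure D4:**
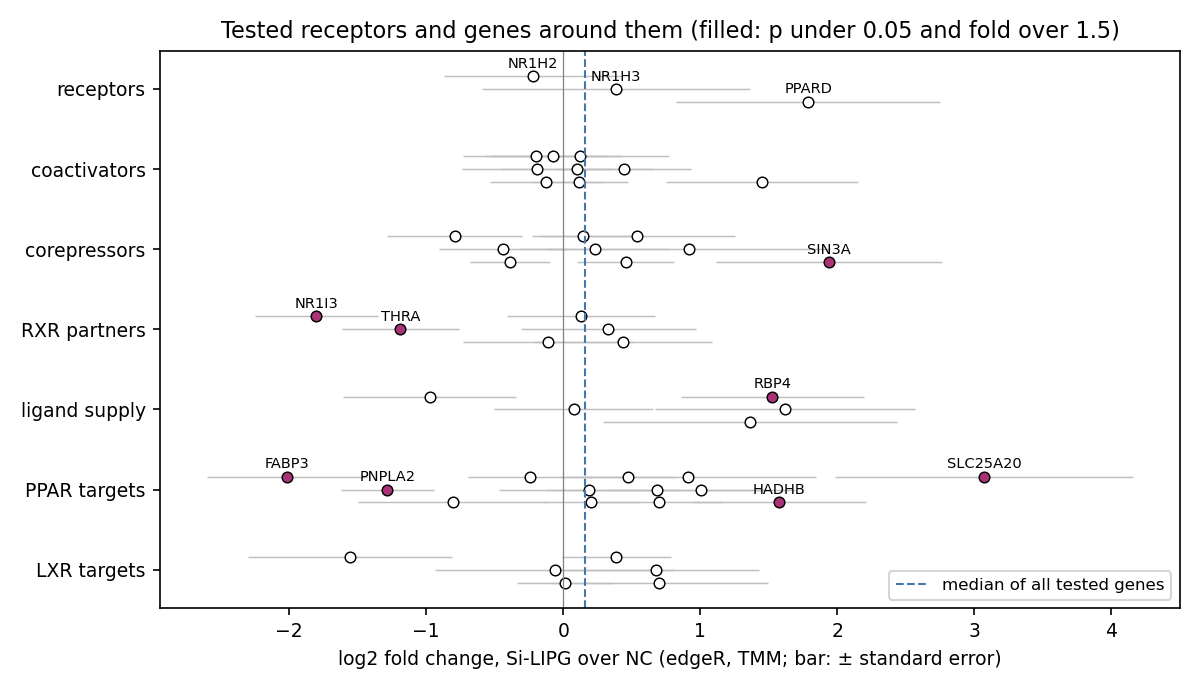
Log2 fold change (Si-LIPG over NC, horizontal axis) with ± standard error of the 3 tested receptors and of the tested genes of 6 lists (rows); filled points met the criterion and the dashed line is the median of all tested genes, 0.16. PPARD is at 1.79 and unfilled, and the filled points are 1 corepressor, 2 RXR partners, 1 ligand supply gene and 4 PPAR targets.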

How the data were processed

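RNA-seq was done in 3 NC and 3 Si-LIPG libraries, grouped by their labels. The authors deposited counts per gene and library (27271 genes and 5 rows that name no gene) and, for those genes, FPKM values (counts per length and per read on genes). The 5 rows hold 97.1% to 99.0% of all reads and entered no library size or test, except where counts were scaled to all reads. The labels' processing notes name fastp, HISAT2, SAMtools and HTSeq. Versions, genome build and strand setting are not given in the sources used here.

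Members were found by gene name. Members, gene lists and tests were chosen with earlier results of these data known. In R 4.3.3, edgeR 4.0.16 kept 6574 genes with filterByExpr (minimum count 10), normalized by TMM and ran the quasi-likelihood test without covariates, with Benjamini-Hochberg adjustment over those genes. TMM factors ranged from 0.608 to 1.35, and the common biological coefficient of variation was 40.5%. DESeq2 1.42.0 (the test named by the study) and limma 3.58.1 on log2(FPKM + 1) and log2(FPKM + 0.1) were alternatives, beside other scalings, filters, a replicate block and leaving out each library. Log2 CPM used a prior count of 2. Exact permutation tests and intervals used SciPy 1.17.1, and figures matplotlib 3.10.9.

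Named were all receptors, their neighbours within 1 kb, the 2 genes most like each tested receptor (1 of them is not reported here), and list genes at the criterion (at most 5 in each direction) or with an adjusted p under 0.05. Other list genes named with values, and the neighbours of list genes, were chosen after their values were seen. In counts simulated for 6574 genes, edgeR recovered 42% of the genes changed 4-fold and 5% of those changed 2-fold (48 calls, 47 true). DESeq2 recovered 53% and 11% (77 calls, 64 true). The changed genes were drawn from all tested genes, so recovery at the mean counts of the tested receptors, 11.0 to 21.2, was not measured. Replicates differed beyond counting noise (chi-square over its degrees of freedom 4.17 to 13.9), so none was counted as a copy. Sequences were not used here.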

Additional observations from a re-analysis of the deposited data

How the results depend on the processing

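Of the 464 values computed under an alternative for 34 results, 336 were taken as the same. For fold changes and shares this means that direction and side of the threshold were kept. Counts of genes had to stay within a factor of 1.5, and the remaining values had to move by less than the spread. PPARD was the 1 receptor that met the criterion with library sizes alone, with all reads and with limma on log2(FPKM + 1) and log2(FPKM + 0.1). So did 29.6% and 46.1% of the tested genes with the first 2 of these settings, and 1912 and 1671 of 6574 with limma. With 1 library left out, 0 to 1 receptors met it. That 1 was PPARD without NC 2, where 22.6% of the tested genes met it. In the same order of settings, the log2 fold change of PPARD was 2.27, 3.11, 1.75 and 3.14. It was 1.37 to 3.07 with 1 library left out. No setting gave a receptor an adjusted p under 0.05. NR1H3 ranged from -0.23 to 1.35 and NR1H2 from -0.70 to 0.19 with 1 library left out, NR1H3 below 0 without NC 2 (-0.23) and NR1H2 above 0 without NC 1 (0.19). NR1H2 was at 0.44 with library sizes alone, 1.42 with all reads and 0.46 and 0.63 with limma. With all reads, THRA was at 0.36 and PNPLA2 at 0.13. SLC39A7 was at -0.025 without NC 1, within a range to 0.62, and the PPARG share was higher by 0.520 percentage points without NC 3, within a range from -16.3. With 1 library left out, the PPARD share was higher by 31.2 to 52.6 points, and the PPARA share differed by -42.1 to -30.1 points.

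The share of all genes at the criterion also changed with the setting. It was 29.6% with library sizes alone, 46.1% with all reads, 13.8% with no filter and 11.4% with DESeq2. With at least 10 counts in every library, 1066 of 2757 genes met it. Of 6574 genes, limma gave 1912 on log2(FPKM + 1) and 1671 on log2(FPKM + 0.1). DESeq2 size factors in edgeR gave 1336, and leaving out 1 library gave 844 to 1525. Library sizes alone gave 1 coactivator, 2 corepressors, 1 RXR partner, 2 ligand supply genes and 1 LXR target at the criterion. With that scale, 0 list genes had an adjusted p under 0.05. All reads gave 3 coactivators, 4 corepressors, 3 ligand supply genes and 4 LXR targets. No filter gave 1 coactivator and 2 LXR targets, and at least 10 counts in every library gave 0 corepressors, 0 ligand supply genes and 2 PPAR targets. Limma on log2(FPKM + 1) gave 1 coactivator, 1 RXR partner and 3 ligand supply genes, limma on log2(FPKM + 0.1) gave 1 RXR partner, and neither gave a list gene with an adjusted p under 0.05. DESeq2 and its size factors in edgeR gave 1 LXR target each. With 1 library left out, the counts were 0 to 1 coactivators, corepressors and LXR targets, 1 to 2 RXR partners, 0 to 2 ligand supply genes and 3 to 4 PPAR targets, and 0 to 3 list genes had an adjusted p under 0.05. The 2 list genes with an adjusted p under 0.05 became 0 without NC 1, NC 2, Si-LIPG 2 or Si-LIPG 3. The cause of these changes was not tested.

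Deviations from the group means correlated at r = 0.21, 0.06 and 0.11 in same-numbered libraries, and at -0.15 to 0.09 in libraries of different number. NC 2 was closer to Si-LIPG 3 (0.09) than to Si-LIPG 2 (0.06). The numbers were not taken to pair the samples, and these values do not settle whether they do. With a replicate block, PPARD was at 2.05, and 0 receptors and 1 coactivator met the criterion. The 3 list genes with an adjusted p under 0.05 were then NR1I3 (3.84e-06), PNPLA2 (0.000234) and FABP3 (0.00335, all from edgeR). Among all genes 1550 met the criterion with the block and 925 had an adjusted p under 0.05, against 1361 and 427 without it. Over all genes, adjusted calls numbered 595 with DESeq2, 714 with at least 10 counts in every library, 750 with all reads, 100 with library sizes alone, 0 with limma and 0 to 648 with 1 library left out, and calls at the criterion 3032 with all reads and 844 without Si-LIPG 3. Genes higher in Si-LIPG made up 37.8% of those at the criterion with TMM, 78.8% with library sizes alone, 99.9% with all reads and 48.7% with no filter. Depth limits every receptor value: the members had 0 to 42 reads in a library.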
